A study of Mus musculus with 4 samples.

Results

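Genes that set vascular tone, 10 in number, were read in an RNA sequencing table of cultured mouse lung endothelial cells: Edn1, Ednrb, Ece1, Ace, Agtr1a, Nos3, Ddah1, Ddah2, Ass1 and Gucy1b3. They were chosen by name for their roles in the endothelin, angiotensin and nitric oxide systems, with earlier results of these data known. All 10 have a row among the 23997 genes of the table. The cells came from C57BL/6 mice and grew in EBM-2 medium with 10% serum. All cultures carried an siRNA for 48 h, either a control siRNA or one that targets Nr3c1, the gene of the glucocorticoid receptor (GR), a steroid-activated transcription factor. Dexamethasone (DEX), a synthetic ligand of GR, was given at 100 nM for 18 h or left out, which makes 4 groups: control siRNA, control siRNA + DEX, GR siRNA, and GR siRNA + DEX. No siRNA sequence, passage number or purification step for the cells is stated (not given in the sources used here).

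The series design speaks of 3 replicates for each condition, whereas the table holds 1 column per condition, so no value below has an SD, an n or a test, and each difference is one between 2 columns. Levels are FPKM (fragments counted per unit of transcript length and of library size), which are scaled for length and so allow genes to be compared. Differences are given on log2(FPKM + 1). A gene counts as called when it differs at least 1.5-fold on that scale and reaches 1 FPKM in a column compared. The siRNA labels were checked on Nr3c1, at 14.4 and 14.3 FPKM with control siRNA (without and with DEX). It was at 5.45 and 5.32 FPKM with GR siRNA, so the knockdown left part of the receptor mRNA. DEX differences of Nr3c1 were −0.0065 in control siRNA cells and −0.030 in GR siRNA cells, so it does not check the DEX labels. Read numbers are not given; the relative depth of the columns, from the value of a single fragment in genes under 0.1 FPKM, was 0.671 for control siRNA, 0.962 for control siRNA + DEX, 1 for GR siRNA and 0.811 for GR siRNA + DEX. The 9 endothelial markers listed (among them Pecam1, Cdh5 and Tie1) all reached 1 FPKM, and summed to 2018 and 2026 FPKM with control siRNA and 1858 and 1812 FPKM with GR siRNA. Of these, the tight junction gene Cldn5 was at 493 and 525 FPKM with control siRNA and 368 and 332 FPKM with GR siRNA. Between the siRNAs it was called lower where both columns had DEX (−0.66) and not where neither had it (−0.42). Of 11 markers of fibroblasts and mural cells 3 reached 1 FPKM, with Rgs5 at 0 in every column, and the list summed to 15.4 and 13.9 FPKM with control siRNA and 20.2 and 18.5 FPKM with GR siRNA. Its member Dcn was called higher in both states, at 0.387 and 0.297 FPKM against 1.99 and 2.73 FPKM. Markers of lung epithelium summed to 2.43 to 3.25 FPKM. Among 4 leukocyte markers in the table Ptprc and Cd3e were at 0, while Cd68 lay between 161 and 218 FPKM. Of the lymphatic markers, Prox1 did not exceed 0.179 FPKM and Lyve1 was at 373 and 348 FPKM with control siRNA and 191 and 192 FPKM with GR siRNA. The part of such cells in the results was not tested.

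As background, endothelin-1 is a peptide that contracts blood vessels. It is made from a precursor encoded by Edn1 and cut by endothelin converting enzyme (Ece1); on smooth muscle it acts mainly through the receptor Ednra, while on endothelium the receptor Ednrb clears endothelin and triggers release of nitric oxide. Angiotensin converting enzyme (Ace) sits on the surface of endothelial cells, is abundant in lung capillaries, makes angiotensin II and degrades bradykinin, and Agtr1a encodes the main receptor of angiotensin II. Nitric oxide is made from arginine by endothelial nitric oxide synthase (Nos3); Ass1 and its partner enzyme argininosuccinate lyase rebuild arginine from citrulline, and Ddah1 and Ddah2 belong to the family of dimethylarginine dimethylaminohydrolases, of which Ddah1 degrades asymmetric dimethylarginine, an inhibitor of the synthase. Gucy1b3 (current symbol Gucy1b1) encodes the beta subunit of soluble guanylate cyclase, the nitric oxide sensor of smooth muscle.

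Promoter sequence is shown for Ednrb and Ace, the members with the largest differences between siRNAs, and for Edn1, the member with the largest decrease with DEX. RefSeq promoters (GRCm38.p6, the assembly of mm10) matched 8 of the 10 members, with 12 transcript starts in all. The stretches run 5′ to 3′ on the strand of the gene, within the 250 bases before an annotated start and outside annotated exons. Ednrb is shown at chr14:103843702-103843951 (minus strand), Ace at chr11:105967698-105967944 (plus strand) and Edn1 at chr13:42301226-42301475 (plus strand). Capitals mark a half-site of the GR binding element, AGAACA on either strand (TGTTCT as read here).
Ednrb: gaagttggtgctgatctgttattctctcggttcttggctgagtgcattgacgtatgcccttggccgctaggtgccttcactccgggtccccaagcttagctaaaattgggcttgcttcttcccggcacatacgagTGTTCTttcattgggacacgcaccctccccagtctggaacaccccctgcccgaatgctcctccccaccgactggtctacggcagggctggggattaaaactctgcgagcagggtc
Ace: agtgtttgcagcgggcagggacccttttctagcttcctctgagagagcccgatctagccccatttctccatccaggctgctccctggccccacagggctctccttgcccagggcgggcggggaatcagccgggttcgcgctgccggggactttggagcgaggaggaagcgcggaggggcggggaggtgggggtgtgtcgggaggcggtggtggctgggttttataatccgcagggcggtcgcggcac
Edn1: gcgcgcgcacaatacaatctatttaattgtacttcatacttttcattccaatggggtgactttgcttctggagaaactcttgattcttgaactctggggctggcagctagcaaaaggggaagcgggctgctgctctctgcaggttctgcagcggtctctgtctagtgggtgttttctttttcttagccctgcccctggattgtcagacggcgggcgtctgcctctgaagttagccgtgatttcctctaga

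The half-site lies at position -115 from the start in Ednrb and occurs in none of the printed Ace and Edn1 bases. The Ednrb stretch lies inside the annotated gene, whose 5′ end is further upstream, at 103844402. Bases before that end were not searched. It was found before 3 of the 12 member starts (1 each of Ednrb, Ece1 and Gucy1b3), and 16.1% of 32851 promoter stretches of the same length hold it. The full palindrome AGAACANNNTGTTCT, which contains the half-site, was before none of the member starts and in 3 of all promoters. The AP-1 word TGACTCA was before none of the member starts and in 4.46% of promoters, and the E-box CACGTG was before 1 start each of Ass1 and Ece1 and in 6.02% of promoters. These are matches of letters in a short window and say nothing of binding.

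In the control siRNA column the members spanned a wide range of levels. Ednrb was the highest, in place 129 of all genes by level, followed by Nos3 (place 396), Ece1 (1039), Ddah2 (1433), Ace (2037), Ass1 (4282), Edn1 (7709) and Ddah1 (9680). Of the 10 members 8 reached 1 FPKM. Agtr1a was listed at 0 in all 4 columns, and Gucy1b3 was listed at 0 in 3 and at 0.0420 FPKM with control siRNA + DEX. The order of levels was the same in both control siRNA columns for these 8 genes. In both GR siRNA columns Ass1 stood above Ace, and the order of the other 6 was as before.

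**Figure D1:**
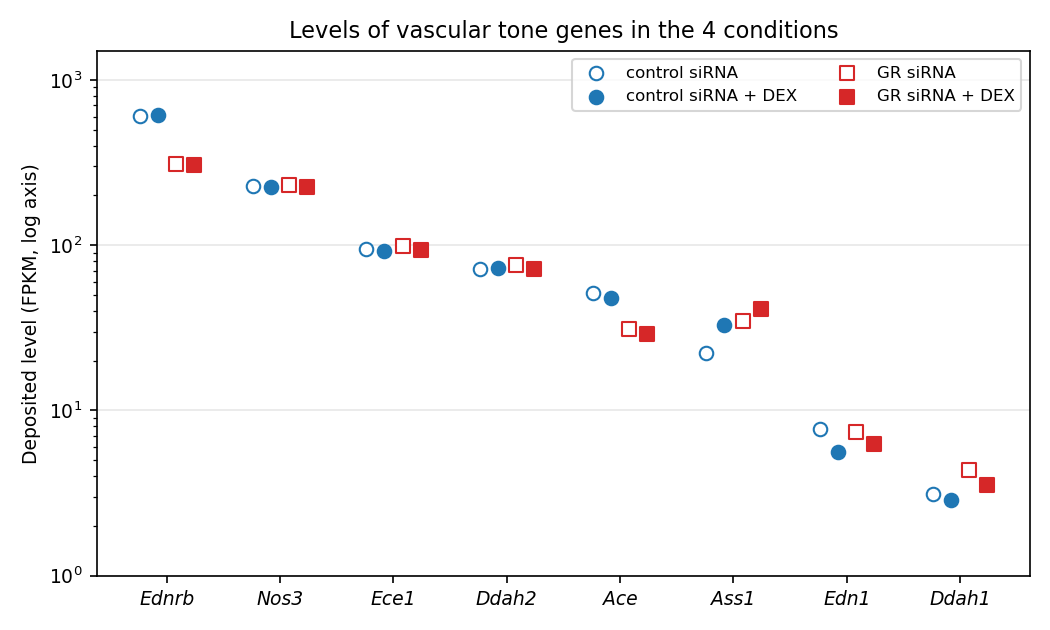
Deposited level of the 8 members that reached 1 FPKM (vertical axis, FPKM on a log scale), each condition having its own symbol: blue circles for control siRNA and red squares for GR siRNA, empty where no DEX was given and solid where it was. Squares of Ednrb (310 and 307 FPKM) and Ace (31.1 and 29.2 FPKM) lie below their circles, those of Ass1 lie above, and the 4 points of Nos3 (225 to 230 FPKM) nearly coincide.

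GR siRNA against control siRNA compares cells with less receptor mRNA to cells with a control siRNA. Because the siRNA itself also differs, receptor loss and other effects of the siRNA cannot be told apart in this contrast. Ednrb and Ace were lower with GR siRNA in both DEX states. The Ass1 row was past 1.5-fold without DEX (0.63) and short of it with DEX (0.33), and Ddah1 (0.38 and 0.23), Edn1, Ece1, Nos3 and Ddah2 stayed within the middle 90% of all genes. Without DEX, 2 of 8 members were called lower, against 2.54% of 11325 genes tested, and 1 was called higher (Ass1), against 2.36%; summed with its pseudogene row Gm5424, Ass1 was not called (0.51). With DEX in both arms 2 were called lower, against 2.62% of 11344 genes, and 0 higher, against 2.36%. At 2-fold in either direction 0 members were called in either state, against 1.5% and 1.35% of genes. The median difference over the 8 members was 0.04 without DEX and 0.011 with DEX, beside −0.014 and −0.0085 over all genes tested. These 2 comparisons share no column. As the members were chosen with earlier results of these data known, their counts beside the shares of all genes are a description only.

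The endothelin receptor gene Ednrb (ENSMUSG00000022122.15, minus strand of chromosome 14, 103814625 to 103844402 in mm10) was at 607 FPKM with control siRNA, 613 FPKM with control siRNA + DEX, 310 FPKM with GR siRNA, then 307 FPKM in the GR siRNA + DEX column. Both control columns are high and both GR siRNA columns low. The level with GR siRNA was 0.510 of the control level when DEX was absent and 0.502 of it when DEX was present, with log2 differences of −0.97 and −0.99. Those differences were the 89th lowest of 11325 genes and the 90th lowest of 11344. DEX itself moved the row little, with differences of 0.015 in control siRNA cells and −0.0097 in GR siRNA cells. As these are bulk cultures, fewer cells of a type and less RNA per cell cannot be told apart. Among the markers listed for lung capillaries, Gpihbp1, which anchors lipoprotein lipase on capillaries, stood at 353 and 357 FPKM with control siRNA and 169 and 181 FPKM with GR siRNA. The tip-cell peptide gene Apln was at 42.6 and 33.9 FPKM, against 44.9 and 38.4 FPKM with GR siRNA. Tbx2 was at 5.14 and 5.72 FPKM against 3.56 and 3.55 FPKM, Plvap at 362 and 383 FPKM against 375 and 363 FPKM, and Aplnr, below 1 FPKM throughout, at 0.116 and 0.135 FPKM against 0.811 and 0.628 FPKM. The capillary markers Car4 and Fibin did not exceed 0.0237 FPKM in any column. The part of capillary cell number in the Ednrb difference was not tested.

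By the distance between centred 4-column profiles, the genes most like Ednrb among 9135 genes of at least 5 FPKM were Serinc3 (distance 0.019), Fam63b (0.032) and Mpp3 (0.042). Serinc3, a membrane protein gene, was at 521 and 530 FPKM with control siRNA and 264 and 261 FPKM with GR siRNA. Fam63b was at 11.1 and 11.0 FPKM against 5.21 and 5.05 FPKM, and Mpp3 at 10.1 and 10.6 FPKM against 4.67 and 4.66 FPKM. This likeness rests on 4 values per gene. The words TTCTGAA and TCTGAAA, taken from an earlier look at this table, were counted in the longest annotated 3′ untranslated region of each gene. Ednrb holds both as the run TTCTGAAA. Of its 3 nearest profiles, Serinc3 holds that run 1 time, Fam63b 3 times in a longer region (6147 bases, against 2441 in Ednrb), and Mpp3 holds neither word. Ace, Ece1, Nos3, Ddah2 and Ass1 hold neither word, and Edn1, Ddah1 and Gucy1b3 hold TTCTGAA 1 time each. Among 10305 genes with such a region tested without DEX, 32.3% hold either word. Of the genes with a word, 3.10% were at least 1.5-fold lower with GR siRNA, against 1.66% of those without. With DEX in both arms, over 10311 genes, the shares were 3.13% and 1.47%. Longer regions have more places for a word, and the shares were not adjusted for length. As the words were also picked for their pattern in this table, these matches and shares are a description only. The part of these words in the Ednrb difference was not tested.

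Ece1, whose enzyme produces the ligand of that receptor, differed by −6.24% to 4.41% between the columns compared. Its level was 94.95 FPKM with control siRNA, 91.6 FPKM with control siRNA + DEX, 99.1 FPKM with GR siRNA, then 93.0 FPKM in the GR siRNA + DEX column (ENSMUSG00000057530.14, chromosome 4, 137862237 to 137965229). The DEX columns are the lower of each pair. The related gene Ece2 was lower in level throughout, at 14.4, 14.2, 17.3 and 16.2 FPKM in the same order. Ligand RNA was scarce next to receptor RNA: the Ednrb level was 78.9 times that of Edn1 with control siRNA and 42.1 times with GR siRNA. The ligand genes Edn2 and Edn3 did not exceed 0.0189 FPKM in any column. Ednra, the receptor of smooth muscle, lay between 0.068 and 0.122 FPKM.

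Ace (ENSMUSG00000020681.14, plus strand of chromosome 11, 105967945 to 105989964) was at 51.2 FPKM with control siRNA, 47.9 FPKM with control siRNA + DEX, 31.1 FPKM with GR siRNA, then 29.2 FPKM in the GR siRNA + DEX column. Here too both GR siRNA columns lie below both control columns. GR siRNA left 0.607 of the control level without DEX and 0.609 with DEX, and the log2 differences were −0.70 in both states. They ranked 198th lowest of 11325 genes and 202nd lowest of 11344. An antisense gene, Gm11651, overlaps Ace; 4.50% of the 31-base words of Ace occur in other genes, and Gm11651 shares more of them than any other gene, but its highest value was 0.0524 FPKM in the table. Other genes of the angiotensin system ranged from 0 to levels near or above that of Ace. Atp6ap2 was at 58.0 to 66.2 FPKM, Anpep at 47.5 to 58.8 FPKM and Agtrap at 8.44 to 9.52 FPKM. Of 15 angiotensin and kinin genes 6 reached 1 FPKM; Agtr1a, Agtr2 and Mas1, all receptors of angiotensin peptides, were listed at 0 throughout, and the precursor gene Agt did not exceed 0.0333 FPKM. Renin (Ren1) was at 0.299 and 0.164 FPKM with control siRNA and 0.037 and 0.018 FPKM with GR siRNA, values too low to compare. Lnpep, an aminopeptidase that binds angiotensin IV, was at 11.8 and 10.5 FPKM against 8.12 and 7.21 FPKM, which misses the 1.5-fold line in both states. The bradykinin receptor gene Bdkrb2 was at 6.14 and 6.95 FPKM against 5.60 and 4.73 FPKM.

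Nos3 (ENSMUSG00000028978.12, chromosome 5, 24364810 to 24384474) was nearly level across conditions. It stood at 227 FPKM with control siRNA, 225 FPKM with control siRNA + DEX, 230 FPKM with GR siRNA, then 226 FPKM in the GR siRNA + DEX column. The log2 differences of GR siRNA from control siRNA were 0.018 without DEX and 0.0020 with DEX. The Ednrb level was 2.67 and 2.72 times that of Nos3 with control siRNA and 1.34 and 1.36 times with GR siRNA. Atg9b and the antisense gene Gm15587 overlap Nos3 on the other strand, and 25.1% of its 31-base words occur in another gene. Strand use in counting is unknown (not given in the sources used here), so reads of the overlap cannot be told apart; Atg9b itself was at 9.61 to 10.8 FPKM. Of the partners of the enzyme, Nostrin, which binds and moves it inside the cell, was at 68.1 and 66.4 FPKM with control siRNA and 49.6 and 51.4 FPKM with GR siRNA. Caveolin-1 (Cav1), which restrains it, was at 350 and 345 FPKM against 315 and 319 FPKM, and Gch1, the first enzyme of its cofactor tetrahydrobiopterin, stayed between 20.3 and 20.7 FPKM. The flow-responsive factors Klf2 and Klf4 lay between 155 and 169 FPKM and between 114 and 124 FPKM.

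The 2 dimethylaminohydrolase genes differed in level and in pattern. Ddah2 (ENSMUSG00000007039.12, chromosome 17, 35059035 to 35062095) was at 71.8 FPKM with control siRNA, 73.1 FPKM with control siRNA + DEX, 75.6 FPKM with GR siRNA, then 72.1 FPKM in the GR siRNA + DEX column. Ddah1 (ENSMUSG00000028194.15, chromosome 3, 145758675 to 145894277) was at 3.11, 2.88, 4.33 and 3.56 FPKM in the same order. Both GR siRNA columns of Ddah1 lie above both control columns, with log2 differences of 0.38 without DEX and 0.23 with DEX, neither of which reaches 1.5-fold. The level of Ddah2 was 23.1 times that of Ddah1 with control siRNA and 17.5 times with GR siRNA. Prmt1, the main enzyme that methylates arginine in proteins and so feeds asymmetric dimethylarginine, was at 135 and 138 FPKM against 151 and 144 FPKM.

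Ass1, the arginine-rebuilding enzyme, was the member whose row was higher both with GR siRNA and with DEX. Its level (ENSMUSG00000076441.9, chromosome 2, 31470207 to 31520672) was 22.1 FPKM with control siRNA, 32.6 FPKM with control siRNA + DEX, 34.8 FPKM with GR siRNA, then 41.3 FPKM in the GR siRNA + DEX column. GR siRNA columns exceeded control columns by 0.63 on the log2 scale when DEX was absent and by 0.33 when it was present, and the DEX difference was 0.54 in control siRNA cells and 0.24 in GR siRNA cells. However, 43.1% of the 31-base words of Ass1 are also in another gene, chiefly its processed pseudogene Gm5424 (chromosome 10, 62071123 to 62072362), an intronless copy that has a row of its own. Gm5424 was listed at 40.0 FPKM with control siRNA, 30.9 FPKM with control siRNA + DEX, 53.8 FPKM with GR siRNA, then 49.5 FPKM in the GR siRNA + DEX column. The pseudogene row was thus lower with DEX in each arm, where the Ass1 row was higher.

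The 2 rows were added as an alternative chosen after the values were seen. Their sum was 62.1 FPKM with control siRNA, 63.5 FPKM with control siRNA + DEX, 88.7 FPKM with GR siRNA, then 90.8 FPKM in the GR siRNA + DEX column. On the sum the DEX differences were 0.032 in control siRNA cells and 0.034 in GR siRNA cells, in place of 0.54 and 0.24. The GR siRNA differences of the sum were 0.51 in both states (1.43 times the control level in each), so Ass1 was not called without DEX on the sum. The Ass1 row held 35.7% of the sum with control siRNA, 51.4% with control siRNA + DEX, 39.3% with GR siRNA and 45.5% with GR siRNA + DEX. How reads were divided between the rows was not tested.

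**Figure D2:**
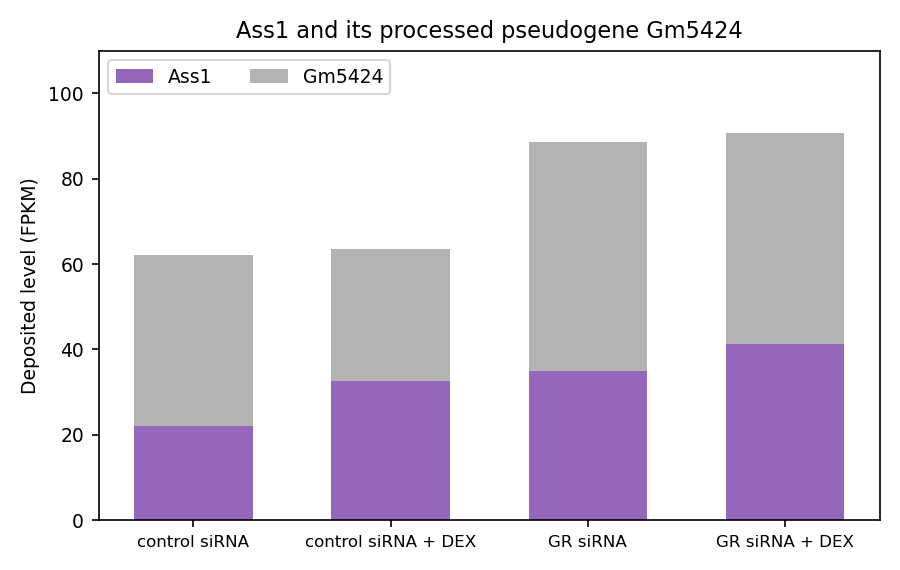
Stacked bars of the deposited level (FPKM, axis from 0) of Ass1 and of its processed pseudogene Gm5424 in each condition. The height of the bars differs between the siRNAs (62.1 and 63.5 FPKM against 88.7 and 90.8 FPKM), while within each siRNA the heights lie close together and the division between the 2 rows differs with DEX.

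Asl, which encodes argininosuccinate lyase, the enzyme that acts next after Ass1, was at 8.39 and 8.13 FPKM with control siRNA and 11.6 and 12.1 FPKM with GR siRNA. Its log2 differences were 0.43 without DEX and 0.53 with DEX, below 1.5-fold. The arginine transporter gene Slc7a1 was at 19.4 and 17.5 FPKM against 23.4 and 20.8 FPKM. Arg1, an arginase that consumes arginine, was the one gene of the 4 vascular tone lists outside the members that was called in either GR siRNA comparison, with 0.225 and 0.314 FPKM against 0.768 and 1.07 FPKM; it reached 1 FPKM in a single column.

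DEX against no DEX asks what the ligand adds within each arm. No member was called: 0 of 8 in control siRNA cells, where 0.686% of 11227 genes were called higher and 0.392% lower, and 0 of 8 in GR siRNA cells, where 0.531% of 11310 genes were higher and 0.645% lower. At 2-fold the count was also 0, against 0.837% and 0.875% of genes. The middle 90% of genes lay between −0.14 and 0.15 in control siRNA cells and between −0.17 and 0.20 in GR siRNA cells. The GR target genes Fkbp5, Tsc22d3 and Per1 were not called with DEX either. Their DEX differences were 0.040, 0.19 and 0.12 in control siRNA cells, and −0.047, 0.092 and 0.013 in GR siRNA cells. Of these values only the 0.19 of Tsc22d3 lay outside the middle 90% of genes. These targets thus give no clear check of the DEX labels, and how far DEX acted in these cultures was not tested. With GR siRNA these target genes were lower than with control siRNA. The differences were −0.71, −1.02 and −0.85 without DEX and −0.80, −1.12 and −0.96 with DEX. Over the 8 members the median was −0.033 in control siRNA cells and −0.079 in GR siRNA cells, beside −0.0051 and −0.0047 over all genes.

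Edn1, the endothelin-1 precursor gene (ENSMUSG00000021367.8, plus strand of chromosome 13, 42301476 to 42307990), was lower with DEX in both arms. It stood at 7.69 FPKM with control siRNA, 5.63 FPKM with control siRNA + DEX, 7.36 FPKM with GR siRNA, then 6.27 FPKM in the GR siRNA + DEX column. Both columns without DEX are above both with it. The log2 difference was −0.39 in control siRNA cells, the 77th lowest of 11227 genes, and −0.20 in GR siRNA cells, the 328th lowest of 11310; neither reaches 1.5-fold. GR siRNA itself gave −0.055 without DEX and 0.13 with DEX. Ddah1 was the other member outside the middle 90% in a DEX comparison, with −0.23 in GR siRNA cells (235th lowest) and −0.082 in control siRNA cells, if Ass1 is left aside for its shared sequence. The DEX differences of Ace were −0.096 and −0.089 in the 2 arms, and those of Nos3 were −0.014 and −0.031.

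**Figure D3:**
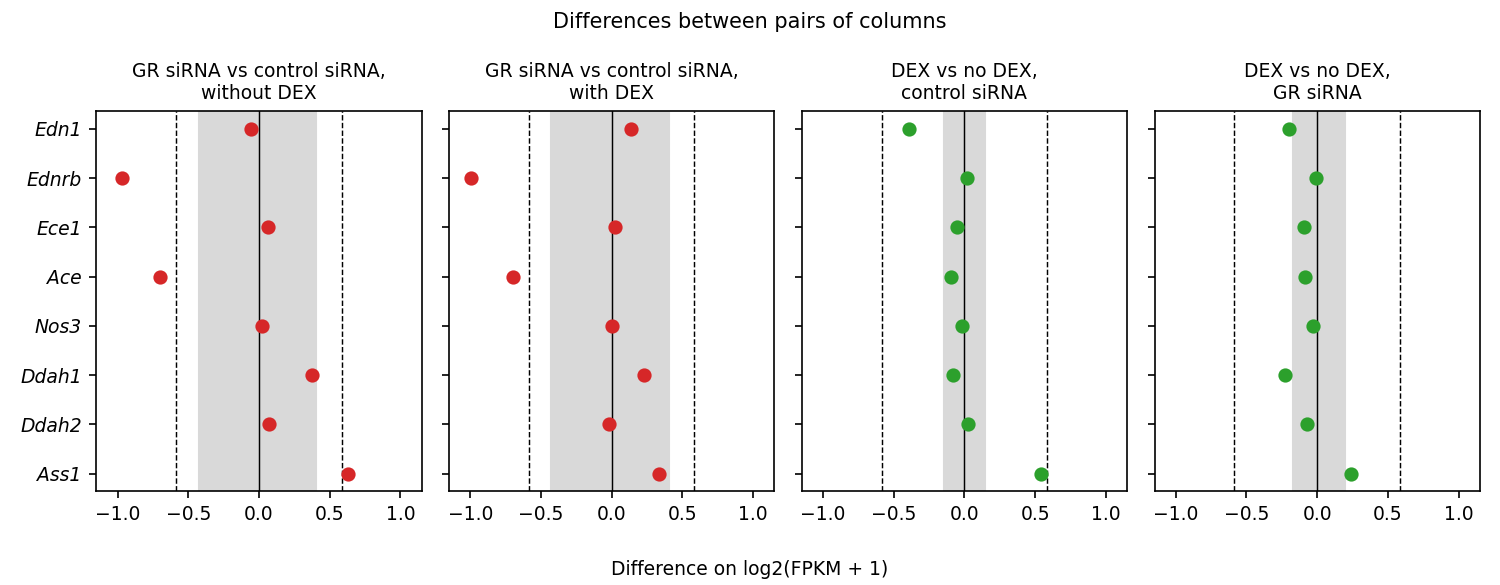
Difference on log2(FPKM + 1) for the 8 members (rows) in each pair of columns (panels); the grey band holds the middle 90% of all genes tested, and dashed lines mark 1.5-fold. Ednrb (−0.97 and −0.99) and Ace (−0.70 in both) lie left of the dashed line in both GR siRNA panels, and Edn1 (−0.39 and −0.20) lies left of the narrow band in both DEX panels.

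The interaction, the DEX difference in GR siRNA cells minus that in control siRNA cells, needs all 4 columns. It was −0.30 for the Ass1 row and 0.0016 for the sum of Ass1 and Gm5424. For Edn1 it was 0.19, for Ddah1 −0.15, and for Ednrb, Ece1, Ace, Nos3 and Ddah2 it lay between −0.094 and 0.0073. The median over the 8 members was −0.033.

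Beyond the members, the 4 lists of vascular tone genes hold 49 further genes (endothelin, angiotensin and kinin, nitric oxide and cGMP). Of these, 24 were tested for GR siRNA without DEX and 0 were called, against 2.36% of all genes called higher and 2.54% lower. With DEX 25 were tested and Arg1 was called higher, against 2.36% of all genes higher and 2.62% lower. The medians over these further genes were −0.031 and 0.020. Under DEX 0 of 24 were called in control siRNA cells, against 0.686% of all genes higher and 0.392% lower. In GR siRNA cells 0 of 25 were called, against 0.531% higher and 0.645% lower. With so few genes, these counts do not set the lists apart from all genes. The cGMP genes divided into those well above 1 FPKM and those near 0. The natriuretic peptide receptor gene Npr1, a membrane guanylate cyclase, was at 85.4 and 89.9 FPKM with control siRNA and 80.2 and 78.0 FPKM with GR siRNA. Pde2a, a phosphodiesterase that cGMP activates, was at 59.5 and 62.8 FPKM against 71.2 and 68.0 FPKM. Vasp, also on the cGMP list, was at 155 and 154 FPKM against 148 and 142 FPKM. The partners of Gucy1b3 in soluble guanylate cyclase, Gucy1a2 and Gucy1a3, did not exceed 0.0225 FPKM in any column. The same held for Prkg1 and Pde5a, which are among the downstream genes.

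**Figure D4:**
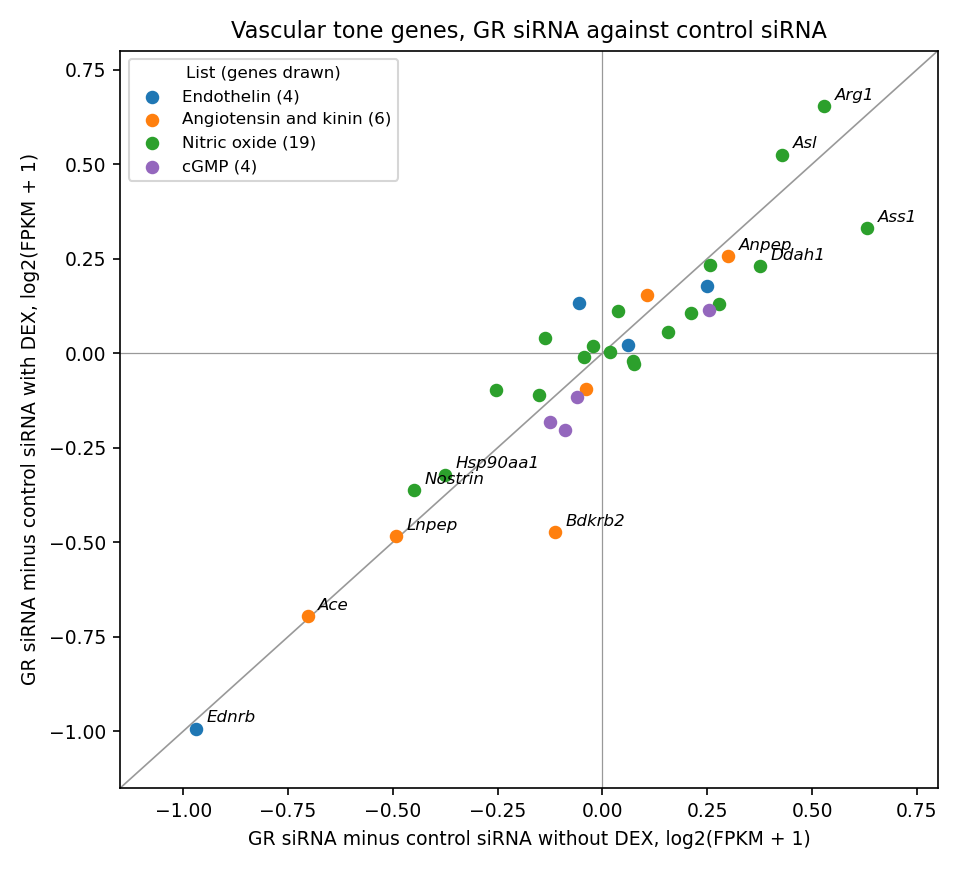
Difference of GR siRNA from control siRNA on log2(FPKM + 1) without DEX (horizontal) and with DEX (vertical) for the genes of the 4 lists that reached 1 FPKM in any column, members included; the grey diagonal marks equal differences. Ednrb and Ace stand apart at the lower left (−0.97 and −0.99; −0.70 in both), and the named genes on the upper right are led by Ass1 (0.63 and 0.33) and Arg1 (0.53 and 0.65).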

How the data were processed

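RNA abundance was measured in 4 samples, 1 per group, from total RNA. The authors deposited 1 table of FPKM with 1 column per condition. TopHat2, a spliced read aligner, Cuffdiff, which estimates FPKM, and the mm10 build are named in the submitters' processing notes; for versions, annotation, strand setting and the combining of replicates (not given in the sources used here) nothing was assumed, and each column was taken as the deposited value of its condition. FPKM keeps no read counts, so no counting interval is given.

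Columns were compared on log2(FPKM + 1), a scale that understates differences of low genes, for genes of at least 1 FPKM in a column compared. The 8 members above this limit were read against all genes tested. Calls were at 1.5-fold, without a test. The members, lists, words and fold limit were chosen with earlier results of these data known. Named were the 10 members and vascular tone genes past 1.5-fold at 5 FPKM or sharing a step with a member. The 3 profiles nearest Ednrb (Euclidean distance), Nr3c1, the GR targets Fkbp5, Tsc22d3 and Per1, and cell type markers were named as well. Arg1, under 5 FPKM, shares the arginine step. Genes were placed on GENCODE M21 (mm10, 1-based), and words of 31 bases were compared over all its transcripts on both strands. Python 3.11.15, numpy 2.4.6 and pandas 2.3.3 were used, and the script that counts genes past the fold limit was checked on simulated data. Alternatives were the pseudocount, the filter, 2 rescalings, the fold limit and, added later, Ass1 summed with Gm5424.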

Additional observations from a re-analysis of the deposited data

Results flagged for a closer look

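Some members moved in opposite directions in the 2 arms of a contrast. With 1 column per condition, none of these differences between arms was tested, and each is given on log2(FPKM + 1). Edn1, the endothelin-1 gene, differed by −0.0554 between GR siRNA and control siRNA without DEX and by 0.133 with DEX. Ddah2 differed by 0.0737 and −0.0205 in the same comparisons, and by 0.0252 with DEX in control siRNA cells and −0.0689 with DEX in GR siRNA cells. Ednrb differed by 0.0149 with DEX in control siRNA cells and by −0.0097 in GR siRNA cells. All but the 0.133 of Edn1 are below 0.1 in size.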

How the results depend on the processing

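No paired analysis was possible because the table has 1 column per condition, and for the same reason no replicate could be left out. The counts of members called for GR siRNA (3 without DEX and 2 with DEX) were the same with a pseudocount of 0.1 FPKM, with no filter, with a filter of 5 FPKM and under both rescalings. Called at 2-fold, the count was 0 without DEX and 0 with DEX. With Ass1 summed with Gm5424, chosen after seeing the data, it was 2 in each state, Ednrb and Ace. The DEX counts were 0 under every alternative. The rescalings moved the columns by at most 0.026 on the log2 scale. Of 40 member differences, 40 kept their sign with the other pseudocount and 39 under each rescaling: Ddah2 with GR siRNA and DEX went from −0.020 to 0.0050 (upper quartile), and the interaction of Ace from 0.0073 to −0.0026 (median ratio). The median interaction over members stayed between −0.043 and −0.021. Depth limits the genes near 0, such as Gucy1b3, most in the control siRNA column.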
